A study of Mus musculus with 33 samples.

Results

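The genes described are 46 imprinted genes of the mouse named for this work, of which 44 were found by gene symbol in all 5 deposited tables of 38393 features. Kcnq1ot1 and Peg13 were not matched by symbol and were not analysed here. An imprinted gene is expressed mainly from the copy inherited from 1 parent, because marks laid down in the egg or the sperm, often DNA methylation, set which copy is read. Imprinted genes lie in clusters, and a long noncoding RNA of the cluster or a methylated insulator often sets which copy of its neighbours is read. Many of them control growth, the entry of cells into the cycle and energy balance, and in the brain several serve in neurons, among them Ube3a, the gene lost in Angelman syndrome, and the genes of the Prader-Willi region. The 46 genes belong to 20 clusters. By textbook assignment 26 of the 46 are read mainly from the paternal copy, 10 mainly from the maternal copy, and 10 differ by isoform, by tissue or by degree. The libraries do not separate the parental copies, so each level is the sum of both.

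RNA with poly(A) tails was sequenced in 33 stranded libraries from frozen cerebellum or cortex of male C57Bl/6J mice aged 1 month, with no treatment named in the labels. Experiment 1A held cerebella of 3 wild-type mice and of 4 mice in which the site for miR-7 of Cyrano, a long noncoding RNA, was mutated (CyrMut). Experiment 1B held cerebella of 4 wild-type mice, 4 mice lacking Cyrano (CyrKO) and 4 mice null for both Mir7a1 and Mir7b, the genes of miR-7a and miR-7b (Mir7DKO), so both mutants shared their wild-type libraries. Experiment 2 held 4 wild-type and 3 Mir7DKO libraries of cerebellum, and the same numbers of cortex. Each mutant was compared with the wild type of its own experiment, and wild-type cerebellum with wild-type cortex in experiment 2. The labels give no tissue-specific promoter or Cre, and they give the alleles as present in the whole animal.

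miR-7 is a microRNA of neurons and endocrine cells that lowers messenger RNAs through short matches to its seed, the bases that open its pairing with a target. Cyrano carries an unusually long match to miR-7 and is known to trigger its decay, so miR-7 is expected to be in excess where Cyrano or its site is lost and lacking in Mir7DKO. The sequences below are shown because they define what a direct miR-7 target among the imprinted genes would look like. The mature RNAs are from RefSeq, written 5′ to 3′ with the seed (bases 2 to 8) in capitals, and both share the same seed.
mmu-miR-7a-5p: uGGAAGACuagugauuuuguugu
mmu-miR-7b-5p: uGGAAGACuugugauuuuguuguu
Of the 44 genes, 38 had an annotated 3′ UTR in GENCODE M21 (build GRCm38), and 9 of these held 13 matches to the seed on the transcribed strand of the longest UTR. A match was GTCTTCC, which pairs with the whole seed. It could also be the form shifted by a base towards the end of the transcript, TCTTCCA. The union of both is the 8-base match GTCTTCCA, and each stretch was counted once under its longest form. Commd1, a regulator of copper handling and NF-κB signalling, held 4, among them both of the 8-base matches found. Ppp1r9a, the actin-binding neurabin, held 2, and Peg3, Grb10, Slc38a4, Ube3a, Copg2, Blcap and Peg10 held 1 each. The matches of 4 genes are shown with their surroundings, the match in capitals, as read on the transcript.
Commd1, minus strand, chr11:22897249-22897256: tcagggttgctGTCTTCCAtgtctttctgt
Commd1, minus strand, chr11:22896876-22896883: gttgggtctctGTCTTCCAcagctctcatg
Grb10, minus strand, chr11:11930821-11930827: ttagatgttttGTCTTCCcctttctgcac
Peg3, minus strand, chr7:6707233-6707239: gaacatctacaTCTTCCAtttcatctaag
Ube3a, plus strand, chr7:59309052-59309058: gccactcatacTCTTCCAgcagtcatggc
Among the genes tested in each comparison, such a match was held by 25% to 27.3% of the imprinted genes with a UTR and by 28.9% to 29.4% of all genes with one.

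Libraries held 6.89 to 24.94 M counts. The unit of a level is CPM, a gene's counts in every M of its library's scaled total. Cyrano (1700020I14Rik), the gene targeted in CyrKO, was at 74.7 to 88.8 CPM in the 4 CyrKO libraries and at 1569 to 1971 CPM in their wild types. The summed level of 5 cerebellar granule cell markers was 5114 CPM or more in every cerebellum library and 57.7 CPM or less in every cortex library, as the tissue labels have it. Choroid plexus is the tissue that secretes cerebrospinal fluid, and the level of its markers varied between libraries. The sum of its 14 markers was 402.5, 51.0 and 50.4 CPM in wild type of experiment 1A against 1019, 55.3, 1290 and 872 CPM in CyrMut, and 43.0 to 50.7 CPM in wild-type cerebellum of experiment 2 against 758, 494 and 43.9 CPM in Mir7DKO. In experiment 2 cortex it was 109, 65.6, 431 and 470 CPM in wild type against 63.5 to 66.2 CPM in Mir7DKO. At most 3 of the 14 markers were at 0 in any library, and none in wild type of experiment 1A, Mir7DKO cerebellum of experiment 2 or wild-type cortex. By the test described below, 13 of these 14 markers had an unadjusted p under 0.05 in CyrMut, and none passed (median log2 change 2.172). In Mir7DKO cerebellum of experiment 2, 7 of 10 tested passed, all higher (median 2.763), among 28 genes passing in all. In cortex 1 of 8 passed, Ttr, which was lower (median -1.233), among 6 genes in all. In experiment 1B none was under that p. The sums are set beside some of the imprinted genes below.

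No imprinted gene passed the test in any comparison of mutant and wild type. The test was edgeR's quasi-likelihood F-test on the counts of all genes with enough of them, with p-values adjusted by Benjamini-Hochberg over all genes and a threshold of 0.05, and changes are log2 of mutant over wild type with the standard error (SE). Of the 44 genes, 37 had enough counts to be tested in CyrMut and 36 in CyrKO. In Mir7DKO there were 36 in experiment 1B, and 37 for cerebellum and 36 for cortex in experiment 2. Over all genes the share that passed was 0.00673% in CyrMut and 0.022% in CyrKO. It was 0.00713% in Mir7DKO of experiment 1B, and in experiment 2 it was 0.198% for the Mir7DKO cerebellum and 0.0436% for the cortex. Taking the 5 comparisons in that order, 6, 1, 0, 6 and 5 of the imprinted genes had an unadjusted p under 0.05, where the share of all genes was 4.98%, 7.35%, 3.68%, 6.78% and 5.77%. The median log2 change of the imprinted genes tested was 0.039, 0.023, -0.003, 0.033 and 0.014, and that of all genes lay within 0.004 of 0 in each comparison. Of the 32 imprinted genes tested in all 5 comparisons, 22 stayed under 0.2 in size on the log2 scale throughout, 28 under 0.3 and 31 under 0.5. The steadiest were Copg2, a coat protein subunit of transport vesicles, whose largest change of the 5 was 0.04, and Ppp1r9a, also at 0.04. Rtl1, Snurf, Peg12 and Phlda2 had too few counts in every comparison, and Snurf was listed at 0 in all libraries.

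**Figure D1:**
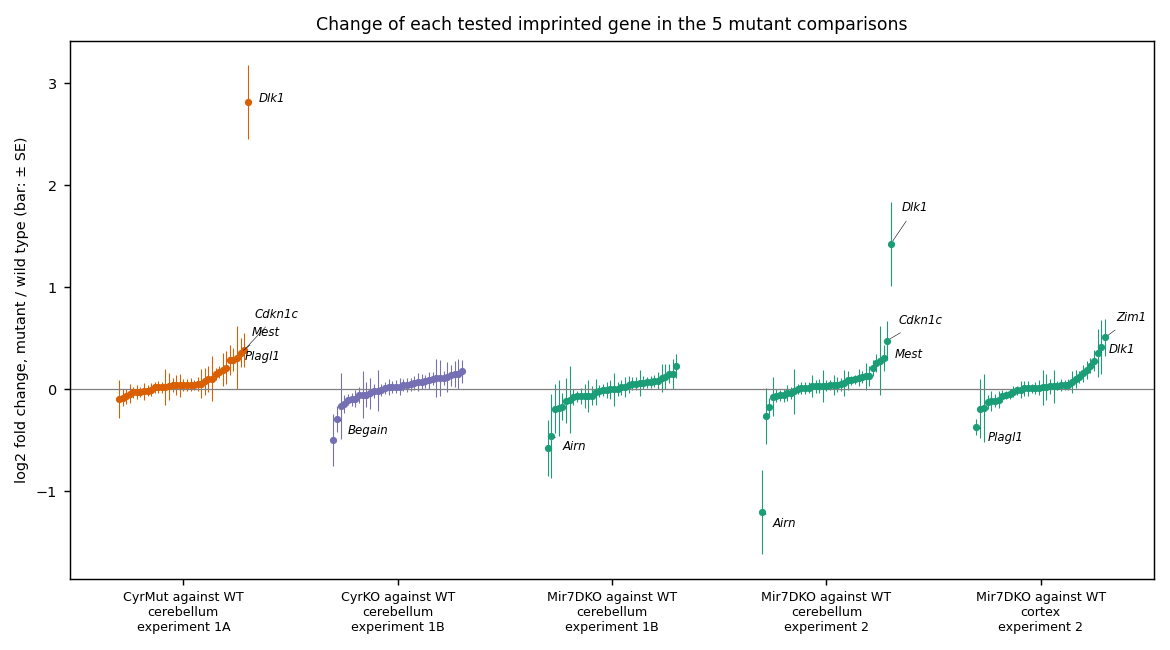
Each point is 1 imprinted gene tested in that comparison (36 or 37 genes), with its log2 fold change of mutant over wild type on the y axis and a bar of 1 SE on either side. Most genes lie within 0.2 of 0; Dlk1 in CyrMut (2.81) and in Mir7DKO cerebellum of experiment 2 (1.42), and Airn in the latter (-1.21), stand apart.

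Dlk1, a membrane protein related to Notch ligands that holds progenitor cells undifferentiated, is a paternally read gene of the Dlk1-Dio3 cluster on chromosome 12 (ENSMUSG00000040856, chr12:109452823-109463336, plus strand). In experiment 1A it was at 0.660, 0.356 and 1.18 CPM in wild type and at 6.31, 2.82, 4.67 and 4.79 CPM in CyrMut. The groups did not overlap, and every CyrMut library was above the highest wild-type library. The log2 change was 2.81 (SE 0.36, adjusted p = 0.0634), which missed the threshold. These levels rest on 9 to 15 counts per wild-type library and 38 to 105 per CyrMut library. The authors' deposited table lists a change of 2.78 with an adjusted p of 5.76e-10. DESeq2 1.42.0 run here gave 2.78 (adjusted p = 5.78e-10), and the edgeR test passed without a filter on low counts (adjusted p = 5.97e-07), without wild-type replicate 3 (3.2, adjusted p = 0.039) and without CyrMut replicate 2 (2.98, adjusted p = 0.0109). It did not pass without any of the other 5 libraries (2.43 to 2.82, adjusted p from 0.0805 to 0.327). With choroid plexus (the mean log2 CPM of its markers) as a covariate the change was 2.39 (SE 0.40, adjusted p = 0.799). The CyrMut library with a choroid plexus sum of 55.3 CPM had the lowest Dlk1 of its group, 2.82 CPM. The wild-type library with a sum of 402.5 CPM had 0.660 CPM. In experiment 1A and in cerebellum of experiment 2 most libraries with a high sum were mutants. Fits with this covariate, here and below, thus cannot fully separate genotype from choroid plexus. The part of choroid plexus in the Dlk1 values was not tested beyond that covariate. Markers of other cells moved in experiment 1A too. The 6 ependymal markers summed to 9.99, 7.09 and 9.22 CPM in wild type and 15.3, 10.2, 15.8 and 12.1 CPM in CyrMut, without overlap (3 of 5 tested at an unadjusted p under 0.05, median 0.588). The 5 erythrocyte markers summed to 446, 369 and 1684 CPM in wild type and 293 to 454 CPM in CyrMut (5 of 5, median -1.165). Of 3 brainstem markers tested 2 were under that p (median 0.197), with sums of 154.0 to 182.7 CPM and 182.3 to 194.6 CPM. None of these markers passed after adjustment, and their part in the Dlk1 values was not tested.

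Dlk1 was close to the limit of detection in the cerebella of experiment 1B and in wild type of experiment 2. In experiment 1B Dlk1 was at 0.532, 0.534, 0.104 and 0.499 CPM in wild type, at 1.121, 0, 0.498 and 0.0876 CPM in CyrKO, and at 0.211, 0.0667, 0.0721 and 0.241 CPM in Mir7DKO, from 0 to 9 counts a library, and was not tested. The wild-type library with a choroid plexus sum of 430 CPM there had 0.534 CPM, against 0.104 to 0.532 CPM in the other 3. In experiment 2 cerebellum Dlk1 was at 0.5005, 0.757, 1.35 and 0.164 CPM in wild type and at 2.31, 2.30 and 1.11 CPM in Mir7DKO. The third Mir7DKO library lay inside the wild-type range, and it was also the one with the low choroid plexus sum of 43.9 CPM. The Mir7DKO levels rest on 29, 30 and 14 counts. Ependymal markers summed to 7.95 to 10.8 CPM in wild type and 11.3 to 11.8 CPM in Mir7DKO there, without overlap, the third library included (1 of 4 tested at an unadjusted p under 0.05). The change was 1.42 (SE 0.41, adjusted p = 0.255), and 0.63 (SE 0.60) with choroid plexus as a covariate. In cortex the gene was higher and overlapped between genotypes, at 5.84, 13.6, 10.2 and 11.6 CPM in wild type and 10.9, 18.7 and 9.08 CPM in Mir7DKO (0.35, SE 0.23). Tests of the difference between comparisons gave 2.97 for CyrMut less CyrKO (SE 0.91, unadjusted p = 0.00444, adjusted p = 1.0), 2.99 for Mir7DKO of experiment 2 less experiment 1B (SE 0.85, unadjusted p = 0.00239, adjusted p = 0.999) and 1.07 for cerebellum less cortex (SE 0.55, adjusted p = 1.0). Over all genes 0.0135%, 0.0% and 0.155% passed these 3 tests, and no imprinted gene did.

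**Figure D2:**
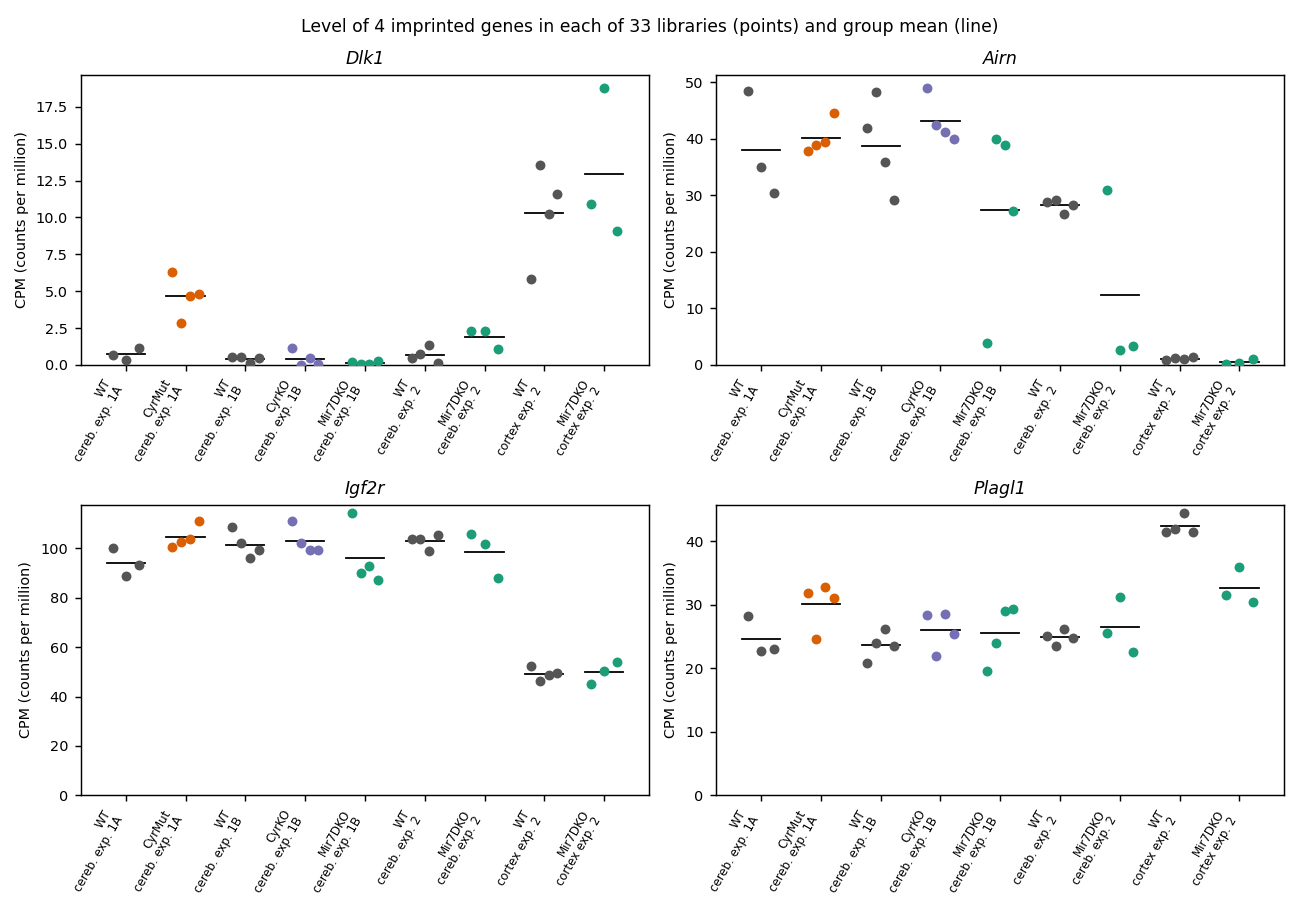
CPM (y axis, linear, from 0) of Dlk1, Airn, Igf2r and Plagl1 in each of the 33 libraries, by group on the x axis, with a line at the group mean. Dlk1 is highest in cortex and is above wild type in CyrMut; Airn is at 3.80, 2.69 and 3.32 CPM in 3 Mir7DKO cerebellum libraries and above 26 CPM in all other cerebellum libraries.

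The noncoding RNAs of the same cluster, which are read from the maternal copy and start downstream of Dlk1, did not move with it in CyrMut. Meg3, the first of them, was at 4652, 4470 and 4388 CPM in wild type of experiment 1A and at 4382, 4878, 4705 and 4280 CPM in CyrMut, with overlapping groups. Rian, host of small nucleolar RNAs, and Mirg, host of many microRNAs, likewise overlapped. In experiment 2 cerebellum Mirg was at 47.2, 45.5, 52.4 and 47.9 CPM in wild type and 60.01, 48.0 and 59.7 CPM in Mir7DKO (0.21, SE 0.08, adjusted p = 0.524). Begain, a postsynaptic density protein 384.6 kb upstream of Dlk1, was the gene under an unadjusted p of 0.05 in CyrKO, at 10.1, 11, 12.7 and 13.9 CPM in wild type and 9.22, 11.1, 8.86 and 9.90 CPM in CyrKO (-0.30, SE 0.13, adjusted p = 0.677). Dio3, the enzyme that inactivates thyroid hormone, had at most 6 counts in any cerebellum library and was not tested there between genotypes.

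Airn, a long noncoding RNA of the paternal copy that silences the paternal Igf2r in many tissues, differed widely between the Mir7DKO cerebella. It lies on the plus strand at chr17:12741311-12860136 (ENSMUSG00000078247) and overlaps Igf2r, which is on the minus strand, by 28354 bases. In experiment 2 it was at 28.8, 29.1, 26.8 and 28.4 CPM in wild type and at 30.96, 2.69 and 3.32 CPM in Mir7DKO, from 388, 35 and 42 counts. In experiment 1B it was at 41.9, 48.3, 35.9 and 29.2 CPM in wild type, 49.0, 42.5, 41.2 and 40.0 CPM in CyrKO, and 3.80, 39.9, 38.8 and 27.2 CPM in Mir7DKO. So 3 of the 7 Mir7DKO cerebella, 1 in experiment 1B and 2 in experiment 2, were at a level that no other cerebellum library came near, and the other 4 lay at 27.2 CPM or above. CyrMut, at 37.9 to 44.6 CPM, overlapped its wild type, at 30.4 to 48.5 CPM.

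The change of Airn with genotype did not pass. It was -1.21 (SE 0.41, adjusted p = 0.428) in experiment 2 and -0.46 (SE 0.41, adjusted p = 1.0) in experiment 1B, and the difference of the 2 was -0.75 (SE 0.77). Without Mir7DKO replicate 1 of experiment 2 the change was -3.23 (adjusted p = 7.83e-15), so in the main fit the call turned on that library. It turned on the fit as well, since Airn passed in some alternatives that kept it, the replicate block given below among them. Without a filter on low counts the adjusted p was 3.86e-28. That library, at 30.96 CPM, was above every wild-type library, so this p does not mean that the mutant libraries agreed. The change was -3.56 with choroid plexus as a covariate (adjusted p = 0.00972), a fit in which Mir7DKO replicates 1 and 2 have high sums and replicate 3 a low one. The authors' deposited table lists -1.20 for experiment 2 cerebellum with no adjusted p, and DESeq2 run here gave none either. In cortex Airn was near the limit, at 0.796, 1.26, 1.01 and 1.38 CPM in wild type and 0.148, 0.290 and 1.09 CPM in Mir7DKO, and was not tested between genotypes.

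Igf2r, the receptor that carries Igf2 to the lysosome, showed no such split. In the Mir7DKO cerebella of experiment 2 it was at 105.8, 101.9 and 88.1 CPM, in those of experiment 1B at 114.2, 89.9, 93.0 and 87.1 CPM, and in wild type at 98.8 to 105.6 and 95.9 to 108.6 CPM. These are the same libraries in the same order as for Airn, and 114.2 CPM, in the library with 3.80 CPM of Airn, was the highest Igf2r level of the cerebella. In CyrMut Igf2r was at 100.7, 102.5, 103.6 and 110.9 CPM against 99.99, 89.0 and 93.4 CPM in wild type (0.15, SE 0.06, adjusted p = 0.944), without overlap. Slc22a3 and Slc22a2, transporter genes beside Igf2r, were at 0.319 and 0.564 CPM or less in all cerebella.

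Plagl1, a zinc finger transcription factor read from the paternal copy that regulates other imprinted genes, was the imprinted gene nearest to the threshold in cortex. It was at 41.4, 41.9, 44.4 and 41.5 CPM in wild-type cortex and at 31.5, 35.9 and 30.4 CPM in Mir7DKO (ENSMUSG00000019817, chr10:13060504-13131694, plus strand). All 3 Mir7DKO libraries lay below all wild-type libraries, and the change was -0.37 (SE 0.08, unadjusted p = 9.65e-05, adjusted p = 0.166). Without a filter on low counts the adjusted p was 0.00367. The authors' deposited table lists -0.38 with an adjusted p of 0.52. The wild-type cortex library with a choroid plexus sum of 65.6 CPM had 41.9 CPM of Plagl1, and the sums of Mir7DKO cortex were 63.5 to 66.2 CPM. The part of choroid plexus in the Plagl1 values of cortex was not tested. Other cell markers separated the same groups. The 4 endothelial markers summed to 158.5 to 176.6 CPM in wild type and 185.2 to 191.4 CPM in Mir7DKO (2 of 4 at an unadjusted p under 0.05, median 0.118), and the 3 astrocyte markers to 951 to 1008 CPM and 1009.8 to 1076 CPM (1 of 3, median 0.07). Neither pair of groups overlapped, none of these markers passed, and their part in the Plagl1 values was not tested. In cerebellum of experiment 2 the groups overlapped, at 23.6 to 26.1 CPM in wild type and 25.5, 31.2 and 22.6 CPM in Mir7DKO (0.08, SE 0.10). The test of the difference between tissues gave 0.46 (SE 0.13, unadjusted p = 0.00131, adjusted p = 0.337), and 0.56 (adjusted p = 0.0348) without Mir7DKO cerebellum replicate 3. In CyrMut Plagl1 was at 31.8, 24.6, 32.7 and 31.04 CPM against 28.2, 22.7 and 23.0 CPM (0.29, SE 0.11, adjusted p = 0.944), and the change was 0.06 with choroid plexus as a covariate.

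The growth genes Igf2 and Cdkn1c did not pass in any mutant, and within CyrMut and within Mir7DKO cerebellum of experiment 2 the libraries with a high choroid plexus sum were above the one with a low sum. In experiment 1B this did not hold. The CyrKO library with a sum of 177 CPM had the lowest Cdkn1c (3.99 CPM) and Igf2 (116 CPM) of its group. The wild-type library with 430 CPM had 4.91 CPM of Cdkn1c and 137 CPM of Igf2, and the Mir7DKO library with 355 CPM had 5.07 and 131 CPM, none of them the highest of its group. Cdkn1c, an inhibitor of the cell cycle read from the maternal copy, was at 5.81, 5.42 and 5.67 CPM in wild type and 8.05, 4.96, 8.004 and 8.09 CPM in CyrMut (0.38, SE 0.17, adjusted p = 0.944). Igf2, a fetal growth factor also made by choroid plexus and meninges, was at 136, 149 and 156 CPM in wild type and 186, 109, 179 and 196 CPM in CyrMut. For both genes the lowest library of all 7 was the CyrMut library with the choroid plexus sum of 55.3 CPM. With choroid plexus as a covariate the changes were 0.08 for Cdkn1c and -0.12 for Igf2. In experiment 2 cerebellum Cdkn1c was at 3.90, 3.69, 6.21 and 4.18 CPM in wild type and 7.18, 6.98 and 4.82 CPM in Mir7DKO (0.48, SE 0.19, adjusted p = 0.61). Igf2 there was at 108, 114, 160 and 136 CPM in wild type and 166, 158 and 142 CPM in Mir7DKO (0.25, SE 0.09, adjusted p = 0.477). Again the Mir7DKO library with the low choroid plexus sum was the lowest of its group for both genes, and with the covariate the changes were 0.07 and 0.10. The wild-type library of experiment 1A with a sum of 402.5 CPM did not stand out, at 5.81 CPM of Cdkn1c and 136 CPM of Igf2. The part of choroid plexus in these values was not tested beyond that covariate, which cannot fully separate it from genotype. Markers of meningeal fibroblasts summed to 128.8 to 149.7 CPM in wild type and 149.0, 106.8, 132.5 and 152.7 CPM in CyrMut, with overlap. The lowest sum was that of the CyrMut library lowest in Igf2 and Cdkn1c. In Mir7DKO of experiment 1B the sums ran from 101 to 163 CPM. The libraries at those ends were lowest and highest in Igf2 (94.2 and 152 CPM) and Cdkn1c (4.44 and 5.87 CPM). In CyrKO and in each wild-type cerebellum group the highest sum and the highest Igf2 fell in different libraries. The part of meningeal cells in these values was not tested. H19, the maternal noncoding RNA beside Igf2, was at 3.34, 1.81, 4.49 and 3.56 CPM in wild type of experiment 1B, at 2.12, 2.25, 1.99 and 2.98 CPM in CyrKO (-0.50, SE 0.25) and at 2.43, 2.87, 2.16 and 1.37 CPM in Mir7DKO (-0.58, SE 0.28, adjusted p = 1.0). Both mutants were set against the same wild-type libraries, and both overlapped them. In tissue RNA more cells of a type and more RNA per cell cannot be told apart.

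**Figure D3:**
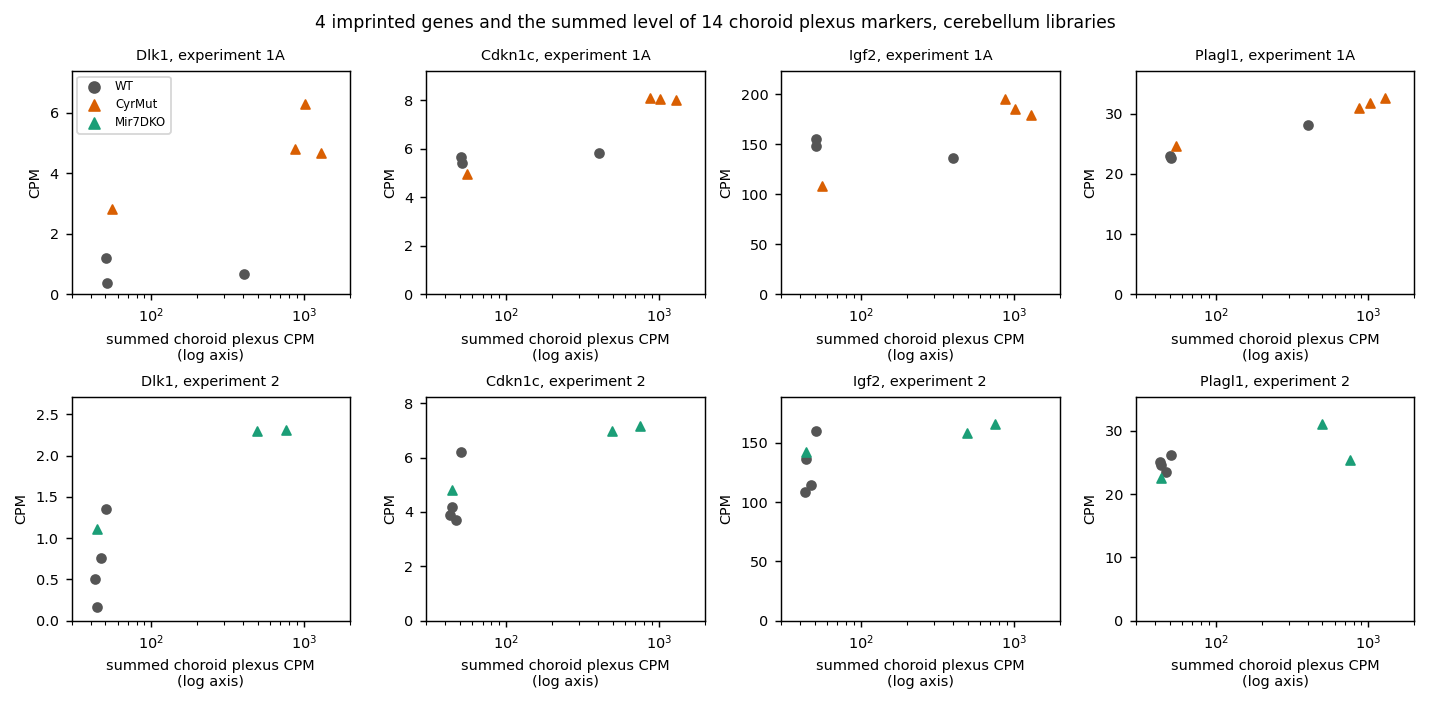
CPM of Dlk1, Cdkn1c, Igf2 and Plagl1 (y axes, linear) against the summed CPM of 14 choroid plexus markers (x axes, logarithmic) in the cerebellum libraries of experiment 1A (top) and experiment 2 (bottom); circles are wild type and triangles mutants. The CyrMut library at a sum of 55.3 CPM lies below wild type for Cdkn1c and Igf2, within its range for Plagl1 and above it for Dlk1.

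Grb10, an adaptor that dampens insulin and growth factor receptors and is read from the paternal copy in neurons, was a little higher in both Cyrano mutants. It was at 43.0, 40.7 and 41.1 CPM in wild type of experiment 1A and at 47.0, 45.4, 46.9 and 47.5 CPM in CyrMut (0.17, SE 0.06, adjusted p = 0.944). In experiment 1B it was at 41.1, 37.7, 39.5 and 38.5 CPM in wild type and 41.2, 41.6, 43.9 and 43.4 CPM in CyrKO (0.11, SE 0.07, adjusted p = 0.708). Neither pair of groups overlapped, and neither change passed. Grb10 was the imprinted gene without overlap in CyrKO, and with Dlk1 and Igf2r 1 of 3 in CyrMut, where 4.17% and 5.39% of all genes did not overlap. In Mir7DKO it was at 39.9 to 42.9 CPM in experiment 1B, and the change was 0.07 (SE 0.06) there, -0.04 (SE 0.08) in cerebellum and -0.12 (SE 0.07) in cortex of experiment 2.

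The imprinted genes without overlap in Mir7DKO differed in number between the comparisons. None of the imprinted genes was without overlap in experiment 1B, where 2.54% of all genes were. In cerebellum of experiment 2 it was Impact alone, a translation regulator, lower by 0.06 on the log2 scale, against 6.67% of all genes. In cortex, of 36 tested, Zim1 and H13 were higher and Plagl1, Snrpn and Trappc9 lower without overlap. This is a larger share than the 6.86% of all genes, and the difference in share was not tested. Zim1, a maternally read zinc finger gene, was at 3.85, 4.34, 3.88 and 4.28 CPM in wild type and 6.21, 6.67 and 4.64 CPM in Mir7DKO cortex (0.51, SE 0.19, adjusted p = 0.849). Zdbf2, a paternally read gene linked to feeding and growth of the newborn, was at 44.2, 46.3, 55.5 and 57.2 CPM and 51.7, 59.1 and 72.3 CPM (0.28, SE 0.10, adjusted p = 0.849). Zrsr1, a splicing factor gene, was at 68.1, 69.8, 61.6 and 67.7 CPM in wild-type cortex and 80.2, 68.5 and 86.5 CPM in Mir7DKO (0.23, SE 0.07, adjusted p = 0.806). Ube3a, a ubiquitin ligase, was at 79.7, 88.3, 92.2 and 93.6 CPM and 82.2, 102.0 and 116.1 CPM (0.19, SE 0.09, adjusted p = 0.849). Both had overlapping groups.

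Mest, a hydrolase-like protein of the paternal copy, gave similar values in CyrMut and in Mir7DKO of experiment 2, neither past the threshold. It was at 19.1, 14.1 and 11.7 CPM in wild type and 21.2, 19.3, 17.9 and 19.3 CPM in CyrMut (0.36, SE 0.14, adjusted p = 0.944). In experiment 2 it was at 10.7, 9.93, 11.9 and 12.5 CPM in wild type and 15.8, 14.7 and 11.5 CPM in Mir7DKO cerebellum (0.31, SE 0.12, adjusted p = 0.61). The groups overlapped in both. With choroid plexus as a covariate the changes were 0.23 and 0.02.

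The changes of genes with a miR-7 match lay on both sides of 0, and none passed. Of those tested, 3 of 8 had a change above 0 in Mir7DKO of experiment 1B, 6 of 8 in cerebellum and 6 of 9 in cortex of experiment 2. Their median changes were -0.016, 0.034 and 0.012. Those of imprinted genes with a UTR and no match were -0.002, 0.032 and 0.02, and those of all genes with a match -0.001, 0.002 and 0.005. Commd1, with both of the 8-base matches shown above, changed by -0.03 (SE 0.13), 0.12 (SE 0.13) and 0.02 (SE 0.13). It was at 7.76 to 9.80 CPM in wild-type cerebellum of experiment 2 and 8.70, 9.05 and 11.1 CPM in Mir7DKO. In CyrMut and CyrKO 6 of 8 site genes were above 0, with medians of 0.04 and 0.047, where imprinted genes without a match had 0.041 and 0.012 and all genes with a match -0.003 and 0.005.

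Between wild-type cerebellum and cortex most of the imprinted genes tested differed, as did most genes. Of the 44, 39 had enough counts for a test, and 32 passed it, 13 higher and 19 lower in cerebellum. Over all genes 74.7% passed, 37.3% higher and 37.4% lower. A called difference of 2-fold or more was found for 4 imprinted genes higher and 9 lower in cerebellum, where 24.3% of all genes had one in either direction. A gene could enter this test with enough counts in 1 tissue only. Dlk1, Dio3, Magel2 and Slc38a4 entered by cortex alone, and Airn, H19 and Mkrn3 by cerebellum alone. Each of these is among the genes with a called difference of 2-fold or more. The median log2 difference, cerebellum over cortex, was -0.18 for the imprinted genes and 0.01 for all genes. The median size of the difference, whatever its direction, was 0.55 for the imprinted genes and 0.47 for all genes. Of 21 mainly paternal genes tested 6 were higher and 11 lower, of 8 mainly maternal genes 3 and 4, and of the 10 others 4 and 4. The tissues were deposited in separate tables, and the counts were joined and scaled together.

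The Dlk1-Dio3 cluster held genes called in both directions. Dlk1 was at 0.164 to 1.35 CPM in cerebellum and 5.84 to 13.6 CPM in cortex, a difference of -3.85 (SE 0.32, adjusted p = 2.23e-10). Dio3 was at 0 to 0.378 CPM in cerebellum, from 0 to 4 counts, and 1.40 to 1.99 CPM in cortex (-3.24, SE 0.45, adjusted p = 7.76e-07). Begain was at 10.98 to 14.4 CPM in cerebellum and 100.2 to 105.5 CPM in cortex (-3.01, SE 0.07, adjusted p = 5.04e-21). These 3 protein genes, spread over the cluster, were thus 8.03 to 14.4 times lower in cerebellum. Dlk1 and Dio3 had enough counts for the filter in cortex only, so their folds rest on few cerebellum counts. The maternal noncoding RNAs between them differed far less. Meg3 was lower in cerebellum by 0.28 on the log2 scale (SE 0.06) and Rian by 0.18 (SE 0.04), while Mirg was higher by 0.55 (SE 0.07, adjusted p = 1.16e-07), at 45.5 to 52.4 CPM in cerebellum and 30.5 to 35.4 CPM in cortex. Per kilobase of exon Meg3 was the most abundant imprinted gene in both tissues, at 270 ± 13.7 CPM per kilobase in cerebellum and 327 ± 34.9 in cortex (SD, n = 4). Nap1l5, a histone chaperone-like gene with a single exon, came next at 206 ± 7.09 and 172 ± 2.02, then Snrpn at 73.0 ± 2.42 and 99.2 ± 1.48.

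Airn and H19 were the genes with the largest excess in cerebellum. Airn was at 26.8 to 29.1 CPM in wild-type cerebellum and 0.796 to 1.38 CPM in cortex, a difference of 4.65 (SE 0.15, adjusted p = 1.83e-18). Igf2r, which it overlaps, was also higher in cerebellum, at 98.8 to 105.6 CPM against 46.2 to 52.5 CPM (1.06, SE 0.05, adjusted p = 1.71e-14). Both genes were thus higher in the same tissue, by unequal amounts. The parental copies are not separated here, so silencing of Igf2r was not measured. H19, a noncoding RNA of the maternal copy that shares its enhancers with Igf2, had 136 counts in the 4 cerebellum libraries and 2 in the 4 cortex libraries. The ratio of its rates was 43.3, with an exact 95% interval of 11.8 to 361 that covers counting error only, and the fitted difference was 5.17 (SE 0.56, adjusted p = 1.69e-08). Igf2, on the same chromosome 72.6 kb away, was at 108 to 160 CPM in cerebellum and 106 to 147 CPM in cortex (0.01, SE 0.10, adjusted p = 0.915). Cdkn1c was lower in cerebellum by 0.49 (SE 0.19, adjusted p = 0.0271) with overlapping groups, beside a choroid plexus sum of 43.0 to 50.7 CPM in cerebellum and 65.6 to 470 CPM in cortex.

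In the Prader-Willi and Angelman region on chromosome 7, neighbours differed in opposite directions. Magel2, a partner of ubiquitin ligases read from the paternal copy, was at 0 to 0.2002 CPM in cerebellum, from 6 counts in all, and 1.86 to 3.88 CPM in cortex (-4.25, SE 0.45, adjusted p = 1.01e-08). Mkrn3, a zinc finger gene that restrains puberty, lies 36.0 kb from it and was at 3.43 to 4.26 CPM in cerebellum and 0.531 to 1.52 CPM in cortex (1.86, SE 0.27, adjusted p = 1.59e-06). Ndn, a relative of Magel2 on its other side, was at 80.5 to 88.8 CPM and 80.3 to 89.0 CPM (-0.02, SE 0.05, adjusted p = 0.769). Snrpn, a splicing protein of neurons, was lower in cerebellum by 0.45 (SE 0.04), and Ube3a, read from the maternal copy in neurons, was at 65.0 to 95.7 CPM and 79.7 to 93.6 CPM (-0.10, SE 0.08, adjusted p = 0.268). The identifier the tables call Snrpn (ENSMUSG00000000948) is named Gm38393 in GENCODE M21, and Snurf, which shares its transcript, was listed at 0, so the value of Snrpn is uncertain in what it covers.

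In the Mest, Nnat and Peg10 clusters 1 gene showed a large difference and the others a small one, while in the Peg3 cluster the sizes were similar. Mest was at 9.93 to 12.5 CPM in cerebellum and 38.6 to 50.7 CPM in cortex (-2.06, SE 0.10, adjusted p = 2.77e-15), while Copg2, whose end overlaps that of Mest by 912 bases on the other strand, was 0.27 higher in cerebellum (SE 0.05). Nnat, a small membrane protein of developing neurons that lies inside an intron of Blcap, was at 33.8 to 41.3 CPM in cerebellum and 105.1 to 132.8 CPM in cortex (-1.70, SE 0.07, adjusted p = 2.85e-16). Blcap itself differed by -0.12 (SE 0.06, adjusted p = 0.0669). Peg3, a zinc finger gene that affects maternal care and body weight, was higher in cerebellum, at 853 to 939 CPM against 649 to 679 CPM (0.44, SE 0.04, adjusted p = 6.15e-10). Usp29, which starts 146 bases from Peg3 in the opposite direction, was lower by 0.44 (SE 0.09), and Zim1, 7.4 kb from Peg3, by 0.73 (SE 0.19). In the Peg10 cluster Ppp1r9a was at 238 to 266 CPM and 566 to 619 CPM (-1.25, SE 0.05), while Peg10, a gene derived from a retrotransposon, was higher by 0.18 (SE 0.07, adjusted p = 0.0213) and Sgce, which encodes epsilon-sarcoglycan and starts 98 bases from Peg10, did not pass (0.14, SE 0.09). Of the 10 clusters with more than 1 gene tested, 5 held genes called in both directions: Dlk1-Dio3, Snrpn, Mest, Peg3 and Peg10. Over all genes 37.3% were called higher and 37.4% lower, and no such count was made for neighbouring genes that are not imprinted. Calls in both directions are thus not shown to be particular to these clusters.

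Among genes alone in their cluster here, Slc38a4, an amino acid transporter, was at 0.189 to 0.701 CPM in cerebellum and 1.87 to 2.76 CPM in cortex (-2.21, SE 0.35, adjusted p = 5e-06). Zdbf2 was at 12.0 to 15.8 CPM and 44.2 to 57.2 CPM (-1.84, SE 0.09, adjusted p = 1.87e-14). Impact (-0.91, SE 0.04), Plagl1 (-0.77, SE 0.07), Grb10 (-0.65, SE 0.06) and Gnas, the stimulatory G protein subunit (-0.55, SE 0.04), were also lower in cerebellum. Inpp5f, a phosphoinositide phosphatase, was higher, at 208 to 232 CPM against 125 to 128 CPM (0.79, SE 0.04, adjusted p = 1.33e-13). In the Zrsr1 cluster, Zrsr1 was at 78.4 to 89.1 CPM against 61.6 to 69.8 CPM (0.33, SE 0.06, adjusted p = 1.27e-05). Commd1, the gene it lies within, differed by -0.20 (SE 0.13, adjusted p = 0.156). The sources used here do not state whether the authors' counting used strand, so for overlapping pairs reads of 1 gene may be counted for the other or left out. Of 47 other imprinted genes and domain neighbours in the tables, 36 were tested, of which 11 were higher and 18 lower in cerebellum, beside the 37.3% and 37.4% of all genes given above. None of them passed in a mutant comparison, where 1 to 3 of 35 to 37 were under an unadjusted p of 0.05, beside 3.68% to 7.35% of all genes.

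**Figure D4:**
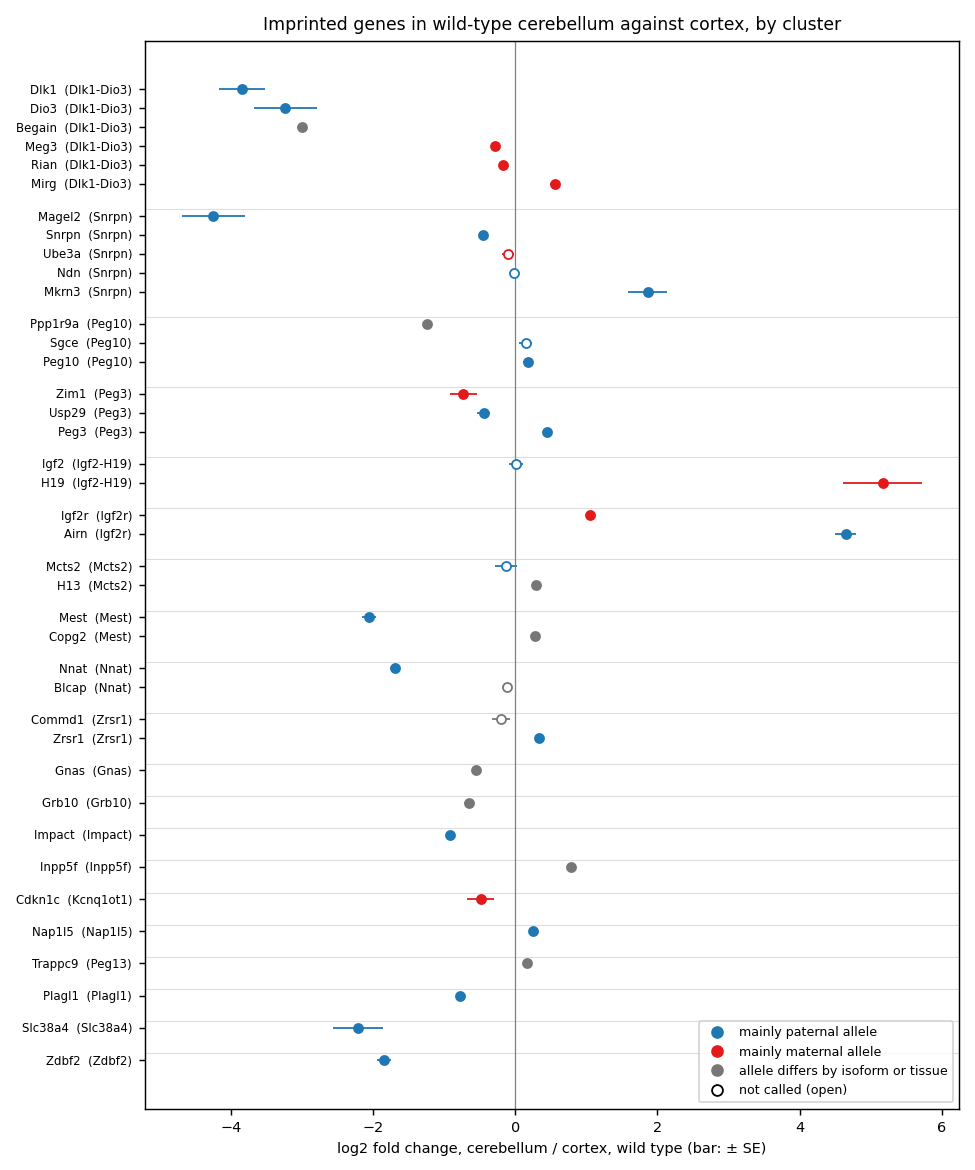
Log2 fold change of wild-type cerebellum over wild-type cortex (x axis, bar of 1 SE on either side) for the 39 imprinted genes tested, ordered by cluster on the y axis, with the cluster in brackets. Colours give the allele mainly read by textbook assignment and open circles genes that did not pass; Dlk1, Dio3 and Begain lie near -3 to -4 while Meg3, Rian and Mirg of the same cluster lie within 0.6 of 0.

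Some genes of 1 cluster varied together from library to library. Each library's log2(CPM + 0.5) was taken as a deviation from its own group mean, over 33 libraries and the 19 pairs of genes of 1 cluster tested in all mutant comparisons. The median Pearson r of these pairs was 0.365, against 0.019 for 477 pairs of different clusters, and all pairs share libraries and depth. The ranges overlapped widely, from -0.726 to 0.687 within clusters and from -0.667 to 0.876 between them. By permutation of libraries within groups, 7 pairs passed after Benjamini-Hochberg adjustment over the 19 by Pearson's r and 6 also by Spearman's rho. The 477 pairs of different clusters were not put to this test. The number that passed is thus not shown to be particular to genes of 1 cluster. The 3 maternal noncoding RNAs of the Dlk1-Dio3 cluster varied together. Meg3 and Mirg had r = 0.687 and rho = 0.748 (permutation p = 5e-05 and 2e-05, adjusted 0.00095 and 0.00038), with r = 0.842, 0.887 and 0.626 within experiments 1A, 1B and 2 and r = 0.748 without the 2 libraries farthest from the median of Meg3. Rian and Mirg had r = 0.626 and rho = 0.591 (permutation p = 0.00078 and 0.0018, adjusted 0.00494 and 0.0117), 0.893, 0.670 and 0.589 within the experiments, and 0.534 without the 2 farthest. Meg3 and Rian had r = 0.562 and rho = 0.550 (permutation p = 0.0019 and 0.0046, adjusted 0.00722 and 0.0145), 0.901, 0.708 and 0.443 within the experiments, and 0.536 without the 2 farthest. Begain showed no such relation with Meg3 (r = 0.053) or Rian (r = 0.001).

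Snrpn and Ube3a, of 1 cluster but of opposite parental copies, varied in opposite directions, with r = -0.726 and rho = -0.651 (permutation p = 0.00023 and 0.0013, adjusted 0.00218 and 0.0117). Within experiments r was -0.229 in 1A, -0.934 in 1B and -0.412 in 2, and -0.619 without the 2 libraries farthest from the median of Snrpn, so that it was weak in experiment 1A. Ube3a also varied with genes of other clusters, with r = 0.876 to Zdbf2, 0.869 to Peg3 and 0.810 to Ppp1r9a, pairs singled out after their values were seen and given with no test. These 4 genes have 12.7 to 20.6 kb of exon, against 5.22 kb for Snrpn. Wild-type replicate 3 of experiment 1A and replicate 4 of experiment 1B stood apart in erythrocyte markers, at 1684 and 1754 CPM against 235 to 446 CPM in the other wild types of their groups. They also had the lowest Ube3a of their groups, 58.8 and 59.0 CPM, and the lowest Zdbf2, 12.9 and 11.3 CPM. Mir7DKO replicate 4 of experiment 1B had 62.2 CPM of Ube3a and 11.03 CPM of Zdbf2 with an erythrocyte sum of 362 CPM. Without those 2 wild-type libraries r was 0.791 for Zdbf2, 0.816 for Peg3 and 0.802 for Ppp1r9a with Ube3a, and -0.670 for Snrpn with Ube3a. Over the pairs of 1 cluster that passed, r without them was 0.658 for Meg3 and Mirg, 0.566 for Rian and Mirg, 0.489 for Meg3 and Rian, 0.510 for Zrsr1 and Commd1, 0.499 for Mest and Copg2 and 0.527 for Peg3 and Zim1. The part of transcript length or blood in the shared spread was not tested further. Igf2 and Cdkn1c, also of different clusters and chosen in the same way, had r = 0.860, with 0.954, 0.843 and 0.881 within experiments 1A, 1B and 2 and 0.871 without those 2 libraries. Zrsr1 and Commd1 had r = 0.548 and rho = 0.538 (permutation p = 0.0031 and 0.0046, adjusted 0.00978 and 0.0145), with r = 0.044, 0.670 and 0.594 within experiments 1A, 1B and 2 and 0.640 without the 2 farthest. Mest and Copg2 had r = 0.457 and rho = 0.491 (permutation p = 0.0018 and 0.0028, adjusted 0.00722 and 0.0134), with 0.214, 0.805 and 0.3 within experiments and 0.378 without the 2 farthest. Both of these pairs overlap in the genome. Peg3 and Zim1 passed by Pearson's r only (r = 0.643, adjusted permutation p = 0.0462, and rho = 0.434, adjusted permutation p = 0.134).

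**Figure D5:**
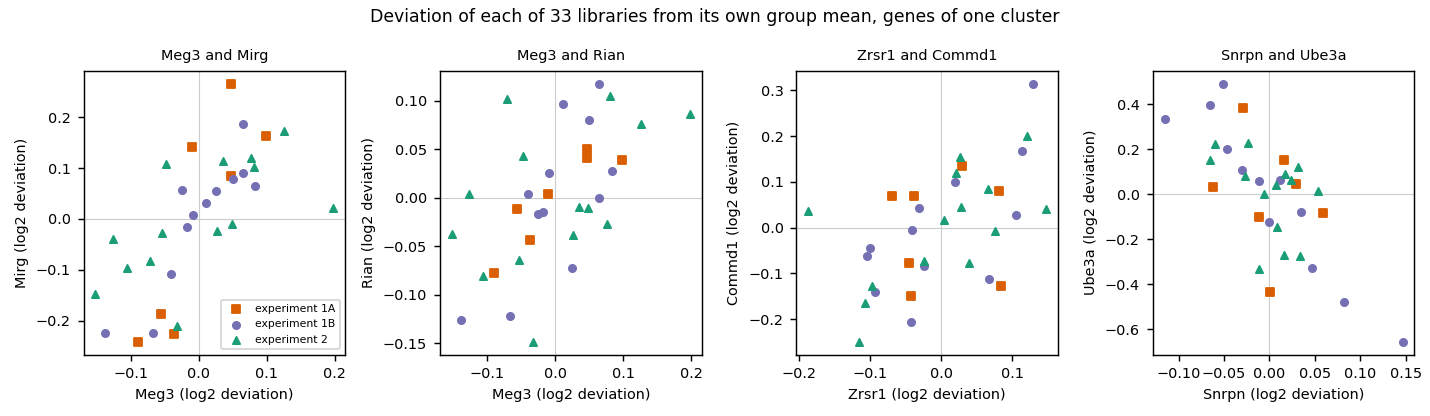
Deviation of each of the 33 libraries from its own group mean, in log2(CPM + 0.5), for 4 pairs of genes of 1 cluster (x and y axes), with a symbol for each experiment. Meg3 rises with Mirg and with Rian in all 3 experiments, Zrsr1 with Commd1 in experiments 1B and 2, and Ube3a falls as Snrpn rises, most steeply in experiment 1B.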

How the data were processed

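The authors deposited a table for each comparison, with whole-number read counts per gene for each library and, per the file headers, their own DESeq2 results as a log2 fold change and an adjusted p-value. Per the submitters' processing notes, STAR 2.4, HTSeq 0.6.1p1 and DESeq2 1.10 were used with mm10 (GRCm38). The annotation release and the strand setting of the counting are not stated in the sources used here. The 37 normalised columns were not used. In the CyrMut data 1 record lacked a cell, which was put back. The wild-type libraries of experiment 1B stand in 2 tables, which differ in 1 count, and were counted once.

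Counts were fitted over all genes by the quasi-likelihood F-test of edgeR 4.0.16 (R 4.3.3) after TMM scaling. Genes were kept by filterByExpr at its minimum count of 10, and p-values were adjusted by Benjamini-Hochberg with a threshold of 0.05. Each fit held only the groups compared, with no covariate. Differences between comparisons were fitted as contrasts of group means. The SE is the size of the log2 change divided by the root of F. CPM use TMM-scaled library sizes within an experiment. Exon lengths, overlaps and 3′ UTRs are from GENCODE M21, which may not be the release of the authors. Correlations of log2(CPM + 0.5) used 100000 permutations of libraries within groups, so the smallest p they can give is 1e-05. The steps were tested on simulated counts. DESeq2 1.42.0, no filter, a replicate block, leaving out each library and, chosen after the data were seen, the mean log2 CPM of the choroid plexus markers as a covariate, and correlations without the 2 wild-type libraries highest in erythrocyte markers, were alternatives. The labels call the replicates biological and give no animal identity. Replicate numbers were not taken as pairs, since same-numbered libraries did not deviate together (correlation from -0.322 to 0.417). The genes, clusters and marker lists were chosen with earlier results of these data known. Genes given in full are Dlk1, Plagl1 and Airn, those with an unadjusted p under 0.05 in a mutant comparison, and the 8 largest called differences between tissues in each direction.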

Additional observations from a re-analysis of the deposited data

Results flagged for a closer look

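In groups of 4 libraries, 192 combinations of gene and group (32 genes) were searched for a library far from the other 3 by Dixon's criterion. Chance meets it in about 1 in 20 of them, and 12 were found, a share near that. No single one below is thus shown to be more than chance. In Mir7DKO cerebellum of experiment 1B, replicate 1 was high in Copg2 (85.3 CPM, others 75.8 to 77.0), Zrsr1 (85.6 CPM, others 76.7 to 77.3) and Ppp1r9a (282 CPM, others 227 to 234), and it is also the library with 3.80 CPM of Airn. Replicate 2 of that group was high in Ndn (124 CPM, others 95.6 to 98.7). In wild-type cerebellum of experiment 1B, replicate 4 was low in Mirg (44.5 CPM, others 54.1 to 55.5) and Zdbf2 (11.3 CPM, others 21.3 to 21.8), and replicate 2 high in Commd1 (12.4 CPM, others 8.90 to 9.42). In CyrMut, replicate 2 was low in Cdkn1c (4.96 CPM, others 8.004 to 8.09), with the choroid plexus sum given above, and replicate 4 high in Gnas (716 CPM, others 699 to 701). In wild-type cortex Plagl1 was high in replicate 3 (44.4 CPM, others 41.4 to 41.9), Mest low in replicate 2 (38.6 CPM, others 48.9 to 50.7) and Nap1l5 low in replicate 4 (312 CPM, others 319 to 320). The spread of Airn in Mir7DKO of experiment 1B was not among these, since Airn was not tested in all 5 mutant comparisons.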

How the results depend on the processing

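Of 635 alternative values of 50 results for single genes, 609 kept direction and side of the threshold, 12 newly passed and 14 turned direction. The count of imprinted genes called in CyrMut was 0, and 1 (Dlk1) with DESeq2 and without a filter on low counts, and 0 to 1 when 1 library was left out. In Mir7DKO cerebellum of experiment 2 it was 0, and 3 without a filter (Airn, Dlk1 and Igf2, with adjusted p of 3.86e-28, 0.0105 and 0.00418), 1 (Airn) with the choroid plexus covariate, and 0 to 1 with a library left out. In Mir7DKO cortex it was 1 (Plagl1) without a filter. For the difference between tissues it was 1 without a filter and 0 to 1 with a library left out. Between wild-type tissues it stayed at 30 to 33. The count over all genes in CyrMut was 1, with 4 by DESeq2, 43 without a filter and 1 to 17 with a library left out. In CyrKO it was 3, with 10 and 3 to 10. In Mir7DKO of experiment 1B it was 1, with 3 by DESeq2, 4 without a filter and 0 to 2. In cerebellum of experiment 2 it was 28, with 184 without a filter, 16 with the covariate and 3 to 70. In cortex it was 6, with 48 and 4 to 11. The difference between tissues gave 23, with 74 and 1 to 48, and that between experiments 0, with 19 and 0 to 1. The cause was not tested.

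With the replicate number as a block, which did not pair the libraries, imprinted genes called in experiment 2 cerebellum numbered 1 (Airn, -1.62, adjusted p = 0.0352), all genes called numbered 2 in Mir7DKO of experiment 1B and 19 in cortex, and Plagl1 in cortex was at -0.38 (adjusted p = 0.0557).

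Small changes turned direction in these cases. Airn in CyrMut was -0.05 to 0.29 with 1 library left out (-0.05 without wild-type replicate 3) and -0.07 with the covariate, and its difference from CyrKO was -0.2 to 0.14 (0.14 without wild-type replicate 1 of experiment 1A, 0.04 without wild-type replicate 4 of experiment 1B). Plagl1 in experiment 2 cerebellum was -0.05 to 0.18 (-0.05 without Mir7DKO replicate 2) and -0.11 with the covariate, and its difference between experiments was -0.17 to 0.06. Dlk1 in Mir7DKO cortex was -0.06 to 0.58 (-0.06 without replicate 2). The difference of Airn between tissues was -2.23 to 0.98 with 1 library left out. Depth limits Dlk1, Dio3 and Magel2 in cerebellum and Airn and H19 in cortex, which rest on few counts.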
